A study of Mus musculus with 32 samples.

Results

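This account follows 271 regions of mouse mRNAs that were recovered with HA-tagged Ago2 from induced neurons and that the authors matched to abundant microRNAs of the cluster from miR-379 to miR-410. The regions were chosen by the microRNA name in the authors' list of matched regions: 13 microRNAs selected on their level in control neurons (above about 2000 CPM, mature microRNA counts scaled to a common library size) had to be the name or part of a joined name. The list held 997 entries for 874 regions in 635 genes, and the rule kept 283 entries for 271 regions in 228 genes. All 22400 deposited HA-Ago2 regions, matched or not, formed the background of the region values.

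The study used embryonic stem cells (ESCs) of hybrid mouse origin at day 0. Induced neurons (iNs) were collected at day 10, after doxycycline had switched on TetO-Ngn2, a transgene for the neurogenic factor Neurogenin 2. The genotype was Mirg(fl/+) in controls and Mirg(Delta/+) after deletion; the latter cells lack the maternal copy of the microRNA cluster. RNA-seq after removal of ribosomal RNA and small RNA-seq each had 3 libraries (A, B and C) for every cell type and genotype. Ago2 seCLIP, which sequences RNA fixed to Ago2 by ultraviolet light, had 2 anti-HA immunoprecipitates and 2 inputs each from Mirg(fl/+) iNs expressing exogenous HA-Ago2 or untagged-Ago2. No region was measured in deletion cells, and the Ago2 was not the cells' own alone. The labels do not say whether the libraries of a group came from separate lines or cultures, so the p-values cover library-to-library spread alone, and a line difference cannot be told apart from the deletion.

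MicroRNAs guide Argonaute proteins to mRNAs mainly through their seed, bases 2 to 8, and the bound mRNA is usually translated less and degraded sooner. The cluster lies in the imprinted Dlk1-Dio3 domain, where the noncoding RNAs, Meg3 and Mirg among them, are expressed from the maternal chromosome. Its microRNAs are known from brain and neurons, and several have been linked to dendrite growth and synapse strength.

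The sequences below are those of the microRNAs whose names carried regions, with miR-1193-5p because the authors' list joined it to miR-379-5p. They were read from RefSeq for GRCm38.p6, all on the plus strand of chromosome 12, in RNA letters from 5′ to 3′, and capitals mark the seed.
miR-134-5p: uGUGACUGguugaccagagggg
miR-154-5p: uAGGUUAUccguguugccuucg
miR-300-3p: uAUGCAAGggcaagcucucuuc
miR-369-3p: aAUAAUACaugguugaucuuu
miR-379-5p: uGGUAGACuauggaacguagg
miR-1193-5p: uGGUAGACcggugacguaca
miR-381-3p: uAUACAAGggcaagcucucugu
miR-382-5p: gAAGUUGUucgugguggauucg
miR-409-3p: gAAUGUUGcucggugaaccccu
miR-541-5p: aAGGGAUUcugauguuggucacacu
The shared seed GGUAGAC of miR-379-5p and miR-1193-5p means that regions of that joined name cannot be assigned to one of them by the seed. In control iNs miR-379-5p stood at 14075 CPM and miR-1193-5p at 0.4 CPM on average. The list likewise joined miR-381-3p (3684 CPM) to miR-539-3p (30.1 CPM), whose sequence is not used here. The seeds of miR-300-3p (AUGCAAG) and miR-381-3p (AUACAAG) were close but carried separate names. Of the 13 microRNAs, 9 named regions, and miR-323-3p, miR-411-5p, miR-369-5p and miR-487b-3p named none.

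The 13 microRNAs were abundant in control cells and nearly lost from deletion cells. In iNs they made up 10.7%, 10.9% and 11.3% of mature counts in control libraries A to C, against 0.018%, 0.014% and 0.017% in the deletion libraries. In ESCs the shares were 5.90%, 6.65% and 6.67% in controls against 0.010%, 0.009% and 0.007%. miR-382-5p was the highest in control iNs, at 39550, 40975 and 40550 CPM, and the highest of them in deletion iNs too, at 94.1, 80.3 and 76.1 CPM. At the edge of the rule, miR-154-5p had 2656 CPM in control iNs, while miR-487b-3p, which the rule names, had 1968 CPM in this scaling. miR-376b-3p (2687 CPM) and miR-412-5p (2043 CPM) were above 2000 CPM but were not among the names, and miR-376b-5p at 1839 CPM lay below. These levels chose the regions and are given as a description.

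**Figure D1:**
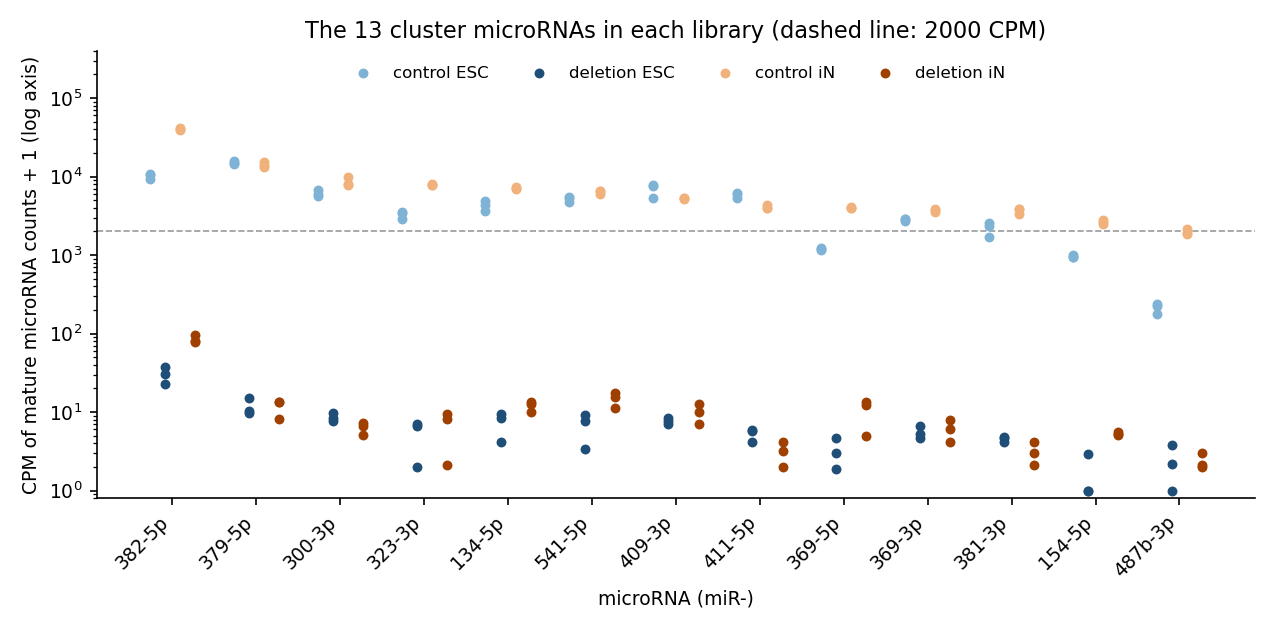
CPM of mature microRNA counts plus 1 on a log axis for the 13 microRNAs, with 1 point per small RNA library and colours for the 4 groups of 3 libraries. The control libraries lie near or above the dashed 2000 CPM line in iNs, and the deletion libraries lie below 100 CPM throughout.

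The matched regions were short stretches, a median of 46 bases long (3 to 145), and the matched sites in them were 7 or 8 bases except for 1. Of 270 sites, 264 lay inside the RefSeq gene, and the median site lay 1430 bases before the gene's 3′ end. For comparison, sites matched to the other microRNAs of the list lay a median of 1624 bases from it. The site itself was wholly inside the region for 194 of the 283 entries. In a few genes, neighbouring or overlapping regions share 1 site: the 5 regions of Tnrc6a cover 2 sites, and the 3 of Neurod1 cover 1.

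The values of the regions are the authors', from pooled replicates, and have no replicate check. The median log2 fold of HA-Ago2 over untagged-Ago2 immunoprecipitates was 1.58 for the 271 regions, 1.48 for the 639 regions matched to other cluster microRNAs and -0.13 for all 22400. A log2 fold of 1 or more was reached by 190 of the 271 (70.1%), against 61.7% of the regions matched to other cluster microRNAs and 18.4% of all regions. A −log10 p of 2 or more was reached by 114 (42.1%), against 37.7% and 10.6%. The 22400 were not limited to regions with a matched site, so they are an unlike set. The part of the cluster microRNAs in that gap was not tested. Over input, the medians were 2.86 for the 271 regions, 2.78 for those matched to other cluster microRNAs and 2.22 for all. Thus 14 of the 271 had no more signal with the tag than without it (a log2 fold below 0), among them the region in Peg10 at -0.26.

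Between microRNAs the folds ranged widely. miR-382-5p, the most abundant, had few regions, 13, with a median log2 fold of 2.49 and 8 of them at a −log10 p of 2 or more. miR-369-3p had 41 regions with a median of 2.38 and 27 at that level, and miR-541-5p had 36 with a median of 2.28 and 22 at it. At the other end, the 31 regions of miR-379-5p/miR-1193-5p had a median of 0.92, of which 6 were below 0, and the 23 of miR-134-5p had 0.99 with 3 at a −log10 p of 2 or more. The spread within each name was larger than the spread between the medians, as the plot of folds by name shows.

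**Figure D2:**
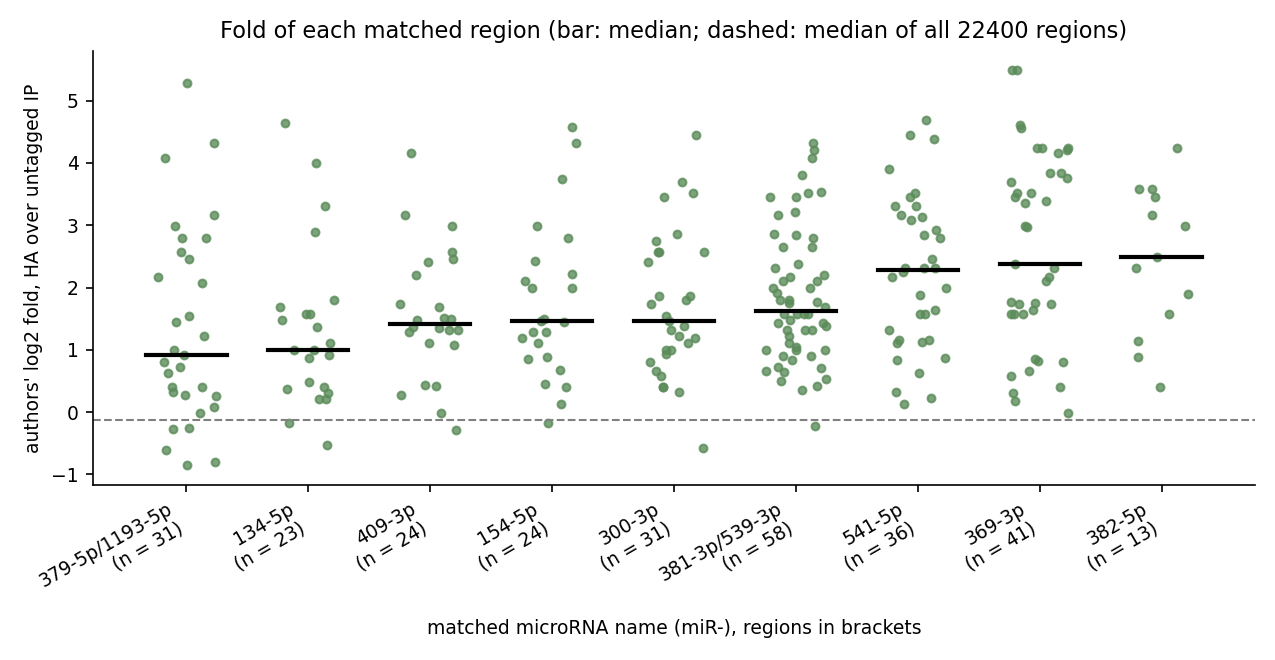
The authors' log2 fold of HA-Ago2 over untagged-Ago2 immunoprecipitates for each matched region, by microRNA name, with black bars at the medians and the median of all 22400 regions dashed. Every name's median lies above that line, from 0.92 for miR-379-5p/miR-1193-5p to 2.49 for miR-382-5p.

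The region of highest fold for each name falls in a gene of known regulators in several cases. Coordinates are mm10. For miR-369-3p it was at chr2:79453071-79453128 in Neurod1, a neurogenic basic helix-loop-helix factor, with a log2 fold of 5.48. For miR-379-5p/miR-1193-5p it was at chr9:114508998-114509029, past the RefSeq end of Trim71, an RNA-binding ubiquitin ligase of stem cells, with 5.28. For miR-541-5p it was at chr9:72917103-72917152 in Prtg, a membrane protein of the immunoglobulin family, with 4.69. For miR-134-5p, the region at chr3:60627441-60627494 in Mbnl1, a splicing regulator, had 4.64.

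For miR-154-5p the top region lay at chr2:167035808-167035858 in Znfx1, a helicase gene, with 4.58, and for miR-300-3p at chr16:43642347-43642405 past the RefSeq end of Zbtb20, a zinc finger repressor, with 4.45. For miR-381-3p/miR-539-3p it lay at chr5:76213069-76213115 in Clock, a transcription factor of the circadian clock, with 4.31. For miR-382-5p it lay at chr19:32122756-32122814 in Sgms1, a sphingomyelin synthase, with 4.24. For miR-409-3p it lay at chr5:137525933-137525986 in Gigyf1, a partner of a translational repressor complex, with 4.16 and a −log10 p of 17.1. Of these 9 genes, Gigyf1 rose and Trim71 fell in deletion iNs, and the other 7 were not called, at log2 fold changes of -0.18 (Mbnl1) to 0.27 (Neurod1).

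The question put to the RNA-seq data was what became of the genes holding these regions once the microRNAs were gone. RNA-seq values were not part of the rule that chose the regions. RNA libraries held 14904735 to 21499106 counts. Mirg, the host RNA of the cluster, had at least 455 counts in each control iN library against at most 2 after deletion, and at least 672 against 0 in ESCs, as labelled. Per length, the genes of the regions spanned 0.033 TPM (Lhx9) to 1374 TPM (Tmsb4x) in control iNs, with a median of 20.3 TPM, and 8 of them were below 1 TPM. Meg3 rose by 0.56 in deletion iNs and fell by 0.38 in deletion ESCs on the log2 scale.

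In iNs the genes of the regions moved in both directions. Of 228 genes, 226 were tested. Lhx9 had too few counts and 2510003E04Rik had no identifier in the count files. At an adjusted p under 0.05 (edgeR), 37 rose (16.4% of those tested, against 12.4% of all 16028 genes tested) and 50 fell (22.1% against 13.3%), while 139 were not called. In some narrower sets falls did not outnumber rises. Regions with a fold at or above their median gave 26 rises and 21 falls among 120 tested genes. Those whose every name is among the 13, which drops the entries of both joined names, gave 31 and 30 among 163. Those with a −log10 p of 2 or more, a limit chosen after seeing the data, gave 19 and 15 among 93. The 37 genes with a site of 8 bases gave 8 and 4. In other subsets falls outnumbered rises. The 131 genes without a match to the list's other microRNAs gave 17 rises and 27 falls. The 29 with 2 or more microRNA names gave 4 and 8. A refit without deletion iN library A, which is no subset of genes, gave 21 rises (9.29%) and 35 falls (15.5%) of 226. The shares of all genes in that refit are not given here. The median log2 fold change of the 226 genes was -0.02, against 0.00 for all genes tested. The 397 tested genes with regions matched only to other cluster microRNAs gave 13.4% higher, 22.4% lower and a median of -0.06.

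The tested genes with regions had a median level of 6.44 log2 CPM, against 4.09 for all genes tested. Among genes of at least 4 log2 CPM, 16.9% of the 201 with regions rose against 14.4% of all 8210, and 22.9% fell against 19.1%. At 6 log2 CPM or more, 12.9% of 132 rose against 15.1% of all 3608, and 25% fell against 22.1%. These differences in share were smaller than those without a limit on level, and for rises at 6 log2 CPM or more the direction turned. The part of expression level was not tested. Nearly all changes were small: the median size was 0.15 on the log2 scale, and Serpinb9b alone among the called rises and Vldlr, Alpl and Klf2 alone among the called falls passed 2-fold. In the authors' deposited table, 31 of 226 of these genes were higher (13.7%, against 11.1% of the whole table) and 49 lower (21.7% against 14.8%) in deletion iNs.

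Split by microRNA name, the counts are read against the 12.4% of all genes that rose and the 13.3% that fell. Of 22 tested genes with a miR-134-5p region, 9 rose (40.9%) and 3 fell (13.6%), with a median of 0.13. Of 28 with a miR-379-5p/miR-1193-5p region, 1 rose (3.57%, Crebrf) and 11 fell (39.3%), with a median of -0.13. The remaining names lay between: miR-381-3p/miR-539-3p had 7 rises and 14 falls of 53, miR-369-3p 4 and 9 of 33, miR-541-5p 6 and 7 of 34, miR-154-5p 3 and 6 of 23, miR-300-3p 3 and 4 of 31, miR-409-3p 5 and 4 of 22, and miR-382-5p 3 and 1 of 13. These are counts of small groups that share genes, and the differences between names were not tested.

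**Figure D3:**
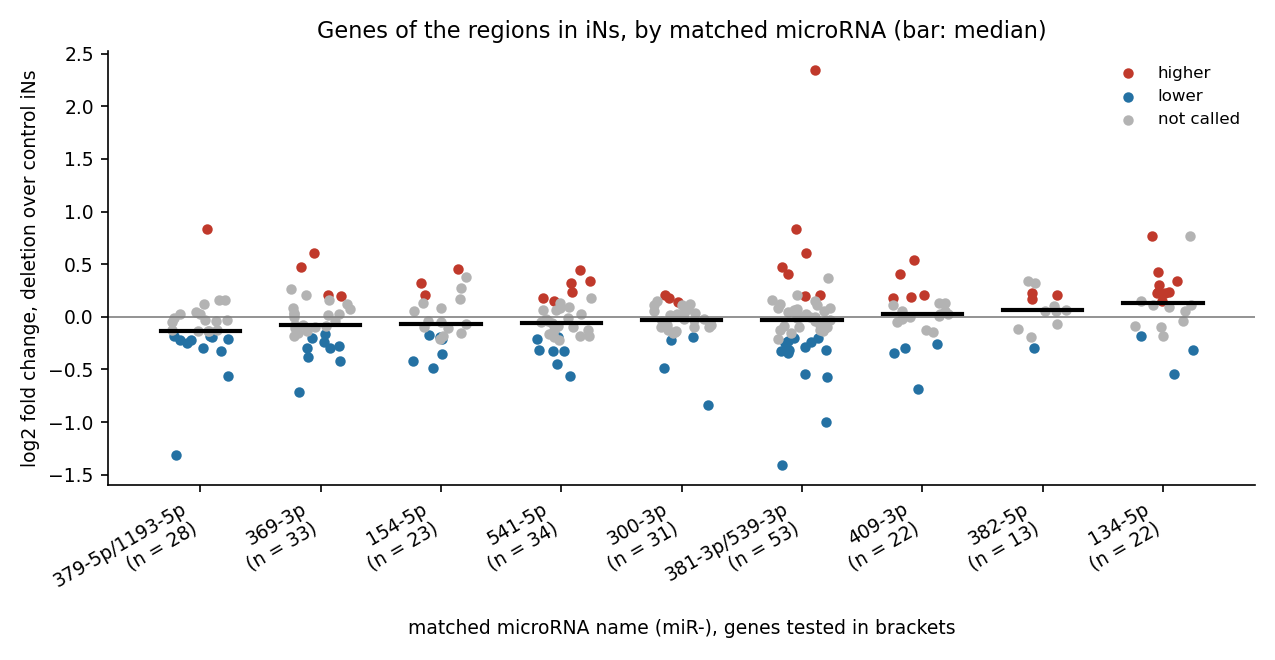
Log2 fold change of deletion over control iNs for each tested gene, by the name of its matched microRNA, with called rises in red, called falls in blue and black bars at the medians. Medians run from -0.13 for miR-379-5p/miR-1193-5p to 0.13 for miR-134-5p, and every name holds genes on both sides of 0.

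The balance also moved with the fold of the region. Of the 44 tested genes whose highest log2 fold was 3 or more, 14 rose (31.8%) and 6 fell (13.6%), with a median change of 0.06. Of the 115 with a highest fold of 1 to 3, 14 rose (12.2%) and 27 fell (23.5%), and of the 67 below 1, 9 rose (13.4%) and 17 fell (25.4%). Among genes matched only to other cluster microRNAs, the 60 with a fold of 3 or more gave 9 rises (15.0%) and 17 falls (28.3%), with a median of -0.10. The limits of these classes were chosen with results in view, and the differences between them were not tested. Genes with the strongest regions were also the less expressed, at a median of 5.71 log2 CPM against 6.71 for those below 1.

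The rises in the class of highest fold included Adam22, Adcy6, Ankrd52, Arl4c, Ccng2, Dstyk, Fech, Gigyf1, Nova2, Setd8, Suv39h1, Tnrc6a and Tnrc6b. They came from 8 of the 9 names, all but miR-379-5p/miR-1193-5p. The 6 falls were Dlc1, Klf2, Lgalsl, Spty2d1, Trim71 and Vldlr. These genes are named from the called genes of that class, after their values were seen.

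Proteins that act in microRNA repression were among the genes with regions. Tnrc6a and Tnrc6b encode GW182 scaffold proteins, which bind Argonaute and recruit the enzymes that remove the poly(A) tail. Both carried miR-369-3p regions, the one of Tnrc6b at chr15:80940971-80941007 with a log2 fold of 3.52. Tnrc6b had 241.3, 262.6 and 282.4 CPM in control iNs and 357.3, 374.3 and 362.5 CPM in deletion iNs. The groups did not overlap, and the rise was 0.48 ± 0.06 (log2 fold change ± SE, n = 3 libraries per group, adjusted p = 3.03e-05).

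Tnrc6a had 117.1, 115.7 and 135.5 CPM in control and 139.5, 138.5 and 145.0 CPM in deletion iNs, a rise of 0.20 ± 0.06 (adjusted p = 0.0316) that lost its call in 5 of the 6 fits leaving out a library. Gigyf1 had 15.1, 12.5 and 15.7 CPM against 20.5, 21.7 and 20.6, a rise of 0.54 ± 0.10 (adjusted p = 0.000882). Ddx6, a helicase of cytoplasmic mRNA granules with regions for 2 names, was not called (-0.13 ± 0.05). Trim71 went the other way: 103.9, 99.9 and 93.4 CPM in control and 68.7, 62.2 and 70.3 CPM in deletion iNs, a fall of -0.56 ± 0.06 (adjusted p = 1.37e-05), with 4 regions for 2 names. Of the 22 listed microRNA pathway genes, with or without regions, 4 rose and 5 fell, against 12.4% and 13.3% of all genes tested.

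Slc17a6, the vesicular glutamate transporter VGLUT2, held a miR-409-3p region at chr7:51670664-51670698 with a log2 fold of 2.41. It stood at 131.5, 132.6 and 138.0 CPM in control and 176.5, 172.3 and 185.8 CPM in deletion iNs, a rise of 0.41 ± 0.05 (adjusted p = 4.93e-05). It was the only one of the 48 listed glutamatergic synapse genes with a region matched to the 13 microRNAs. Of the 47 tested in that list, 24 rose and 5 fell, against 12.4% and 13.3% of all genes tested. Most of those rises were therefore in genes without a matched region of these microRNAs.

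Nova2, a neuronal splicing factor with 3 miR-541-5p regions of log2 fold 2.80 to 3.13, had 36.9, 40.9 and 41.2 CPM in control and 48.8, 48.3 and 53.3 CPM in deletion iNs. That rise was 0.34 ± 0.07 (adjusted p = 0.00158). Snhg11, a noncoding RNA host of small nucleolar RNAs, went from 456.7, 408.9 and 565.5 CPM to 748.4, 860.8 and 827.6 CPM (0.77 ± 0.09, adjusted p = 2.13e-05), although its miR-134-5p region had a log2 fold of 0.21. Nhlh2, a neuronal helix-loop-helix factor, rose by 0.32 ± 0.10 (adjusted p = 0.0243), a call lost in 4 of the 6 fits leaving out a library. Neurod1, with the region of highest fold, was not called: 15.0, 12.96 and 11.2 CPM in control and 17.3, 14.5 and 15.3 CPM in deletion iNs overlapped (0.27 ± 0.12, adjusted p = 0.103).

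Among axon guidance genes, Efna5 and Efnb2, both ephrins, moved apart. Efna5 rose by 0.15 ± 0.05 (adjusted p = 0.039) and Efnb2 fell by -0.18 ± 0.06 (adjusted p = 0.0256), and each call was lost on leaving out at least 4 single libraries. Sema6a was not called (0.15 ± 0.06). Cpeb1, a regulator of cytoplasmic polyadenylation, changed by -0.18 ± 0.06 (adjusted p = 0.0349), a call lost in most of the other fits. Summed markers of neurons were alike in control (9560 to 9720 CPM) and deletion iNs (9440 to 9700 CPM), whereas neural progenitor markers summed to 11.8 to 15.1 CPM in control and 21.8 to 27.1 CPM in deletion iNs. The 6 fibroblast markers (Col1a1, Col1a2, Col3a1, Dcn, Lum and Thy1) summed to 35.2 to 46.7 CPM and 55.8 to 63.9 CPM. Of these, 1 was at 0 counts in control iNs and 2 in deletion iNs. Single markers were not examined, so that sum may rest on a few of them. Glial markers summed to 41.5 to 44.8 CPM and 44.7 to 51.4 CPM. The part of these differences in the gene values was not tested. In bulk RNA, fewer cells of a type and less RNA per cell cannot be told apart.

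Among genes above 2 in mean log2 CPM, the largest rise was that of Crebrf, a regulator of the CREB3 response to endoplasmic reticulum stress, with regions for miR-379-5p/miR-1193-5p and miR-381-3p/miR-539-3p. It had 29.7, 26.7 and 28.2 CPM in control and 49.1, 55.3 and 45.9 CPM in deletion iNs, a rise of 0.83 ± 0.08 (adjusted p = 1.85e-06). Crebzf, a related leucine zipper factor with a miR-154-5p region, rose by 0.45 ± 0.07. Ccng2, a cyclin G with regions for miR-369-3p and miR-381-3p/miR-539-3p, went from 27.1, 30.7 and 30.2 CPM to 43.6, 51.1 and 39.9 CPM (0.61 ± 0.09, adjusted p = 0.000109).

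Ccng1, the other cyclin G and a p53 target, fell: 325.7, 275.4 and 288.9 CPM in control and 166.2, 172.6 and 160.7 CPM in deletion iNs (-0.83 ± 0.06, adjusted p = 2.8e-07). Pnrc1, a nuclear receptor coactivator (0.47 ± 0.09), Nbeal2, a BEACH domain protein (0.44 ± 0.10), and Myadm, a membrane protein (0.42 ± 0.06), also rose.

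Within the same limit on mean level, which leaves out Klf2 and Alpl, the largest fall was that of Vldlr, a receptor for reelin and lipoproteins. Its miR-381-3p/miR-539-3p region at chr19:27249464-27249542 had a log2 fold of 3.21. Vldlr had 164.9, 153.5 and 141.9 CPM in control and 76.8, 72.8 and 80.3 CPM in deletion iNs (-1.001 ± 0.065, adjusted p = 6.27e-08). It belongs to the listed serine, cysteine and amino acid stress genes, of which 20 of 22 tested fell, against 13.3% of all genes. Vldlr alone of that list had a region matched to the 13 microRNAs.

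Msmo1, a sterol oxidase of cholesterol synthesis with a miR-369-3p region, had 308.0, 296.1 and 318.1 CPM in control and 180.2, 190.1 and 191.0 CPM in deletion iNs (-0.72 ± 0.05, adjusted p = 1.96e-07). It moved with its list, the cholesterol synthesis genes, in which 21 of 22 fell (against 13.3% of all genes tested) and none rose. Most of them had no region matched to the 13 microRNAs.

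Further falls were in signalling and gene regulation. Spry4, an inhibitor of receptor tyrosine kinase signalling with a miR-409-3p region, had 175.9, 190.6 and 177.0 CPM in control and 114.9, 89.7 and 133.2 CPM in deletion iNs (-0.69 ± 0.10, adjusted p = 0.000132). Mycn, a transcription factor of proliferating progenitors with regions for 2 names, had 42.6, 43.5 and 40.9 CPM against 29.1, 29.9 and 28.3 (-0.54 ± 0.06, adjusted p = 1.89e-05). Mapk6, an atypical kinase of the ERK family (-0.45 ± 0.05), and Srsf7, a splicing factor (-0.42 ± 0.08), fell as well.

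Rest, the repressor of neuronal genes, was low in iNs (4.24, 5.16 and 5.50 CPM in control, 4.02, 3.18 and 3.48 CPM in deletion) and fell by -0.48 ± 0.17 (adjusted p = 0.0474), a call lost in 4 of the 6 fits leaving out a library and with the Wald test. Trim71, Mycn and Rest were several times higher in ESCs than in iNs. Pluripotency markers summed to 8.77 to 9.44 CPM in control and 5.10 to 5.63 CPM in deletion iNs, and their part in these falls was not tested.

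**Figure D4:**
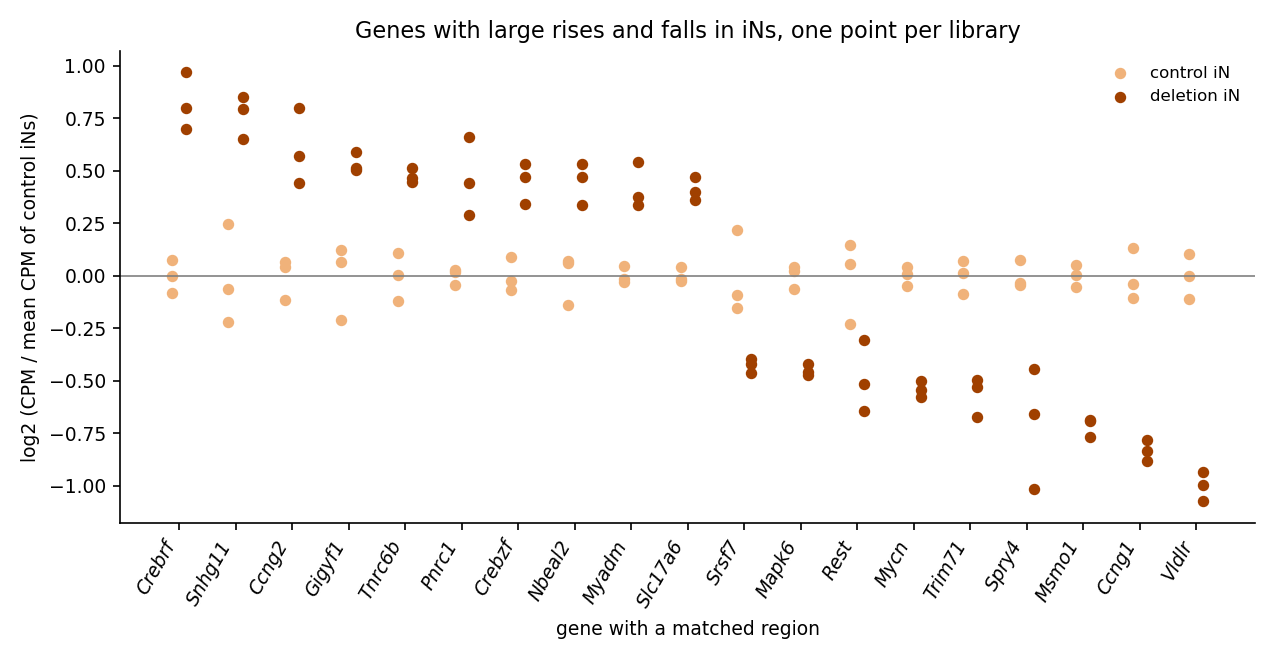
Log2 of the CPM in each iN library over the mean of the control iNs for genes with large called rises and falls, at 3 control and 3 deletion libraries each. The genes were selected for a mean log2 CPM of 2 or more and for groups that do not overlap, and the deletion libraries reach from 0.97 in Crebrf to -1.07 in Vldlr.

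The number of regions was set beside the change in iNs. The 30 tested genes with 2 or more regions gave 5 rises (16.7%) and 4 falls (13.3%) with a median of -0.01, and the 196 with 1 region gave 32 (16.3%) and 46 (23.5%) with a median of -0.02. Of the 10 with the most regions, Tnrc6a and Nova2 rose, and Trim71 and Mycn fell. Serinc1, a membrane protein with 4 regions for 3 names, had 681.3, 616.3 and 663.4 CPM in control and 669.1, 701.2 and 660.7 CPM in deletion iNs, which overlapped. Marcks, an actin-linked substrate of protein kinase C, Csnk1a1, a casein kinase of the Wnt pathway, Mbnl1 and Clock were not called either.

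Imprinted genes with regions were Peg10 and Plagl1, both expressed from the paternal chromosome. Peg10, a gene derived from a retrotransposon, had 673.0, 628.7 and 601.5 CPM in control and 513.4, 503.2 and 537.5 CPM in deletion iNs (-0.29 ± 0.05, adjusted p = 0.0011). In ESCs it went the other way, from 2228, 2286 and 2318 CPM to 2923, 3022 and 3130 CPM (0.41 ± 0.04, adjusted p = 0.00143). Plagl1, a zinc finger factor whose region at chr10:13129361-13129372 was matched to both miR-369-3p and miR-381-3p/miR-539-3p, was not called in iNs (0.16 ± 0.09, adjusted p = 0.228) or ESCs (-0.12 ± 0.09, adjusted p = 0.565). None of the listed maternally expressed genes and none of the 12 listed published targets of the cluster had a region matched to the 13 microRNAs. Whether they had other HA-Ago2 regions was not examined.

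In ESCs the same genes changed little. Of 221 tested, 7 rose (3.17%, against 1.37% of all 16185 genes tested) and 1 fell (0.452% against 0.544%), with a median of -0.015 against -0.002 for all. Libraries of letter A deviated together in ESCs, and those of letters B and C did so less clearly. With the letter as a block, 16 rose (7.24% against 3.2% of all genes) and 20 fell (9.05% against 3.1%). The values of single genes below are from the fit without the block unless it is named. Of the named genes, Clock, Crebrf, Gigyf1 and Pnrc1 (falls) and Efnb2 (a rise) were called with the block alone. The regions come from iNs, so whether Ago2 held these sites in ESCs was not measured.

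The called rises in ESCs, that of Peg10 included, were all small. Myadm rose from 158.4, 161.5 and 160.1 CPM to 195.6, 208.9 and 204.2 CPM (0.34 ± 0.04, adjusted p = 0.00393), close to its rise in iNs. Tmsb4x, an actin-sequestering peptide, rose from 216.4, 218.3 and 212.6 CPM to 263.2, 261.4 and 263.4 CPM (0.28 ± 0.03, adjusted p = 0.00437), and these 3 genes kept their call without any 1 library.

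Efna5 (0.42 ± 0.08), Spry4 (0.25 ± 0.05) and Wnk1, a kinase named after its values were seen (0.22 ± 0.04), were past the threshold, but each lost its call on leaving out most of the single libraries. Tet2, which oxidises methylated cytosine in DNA, was the 1 fall, from 211.5, 207.7 and 205.7 CPM to 167.8, 176.3 and 178.8 CPM (-0.26 ± 0.04, adjusted p = 0.0141), and lost its call on leaving out 4 of the 6 libraries.

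The effect of the deletion differed between iNs and ESCs for 50 of 226 genes tested across all 12 libraries. For 18 it was higher in iNs (7.96%, against 5.01% of all 18299 genes tested) and for 32 it was lower (14.2% against 8.5%). At 6 log2 CPM or more the shares were 7.09% against 6.16% and 18.9% against 19.9%. Crebrf (1.04 ± 0.11, adjusted p = 1.35e-05), Ccng2 (0.75 ± 0.16) and Gigyf1 (0.74 ± 0.11) had the firmest positive differences of the 5 largest. Gigyf1 had 47.2, 45.1 and 44.7 CPM in control and 40.1, 39.2 and 39.0 CPM in deletion ESCs, values that did not overlap and gave an adjusted p of 0.0556, or 0.0186 with the replicate letter as a block.

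Negative differences were found for Msmo1 (-0.86 ± 0.08, adjusted p = 3.74e-06), Spry4 (-0.95 ± 0.14, adjusted p = 0.000285) and Peg10 (-0.72 ± 0.07). Spry4 and Peg10 were called in both cell types, in opposite directions. Klf2, a factor of the pluripotent state, and Alpl, alkaline phosphatase, also differed (-1.42 ± 0.32 and -1.255 ± 0.18). Both were at or below about 3 CPM in iNs and above 97 CPM in ESCs, so their iN values rest on few counts.

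Serpinb9b, a protease inhibitor (2.02 ± 0.56), stood at 0.62, 0.19 and 0 CPM in control and 0.93, 1.995 and 0.99 CPM in deletion iNs. Slc17a6 (1.29 ± 0.38) and Aph1b, a gamma-secretase subunit (-1.19 ± 0.31), rested on values of about 1 CPM or less in ESCs. The calls of Serpinb9b, Aph1b and Slc17a6 were lost on leaving out 3, 3 and 5 single libraries, and that of Klf2 without control iN library B.

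**Figure D5:**
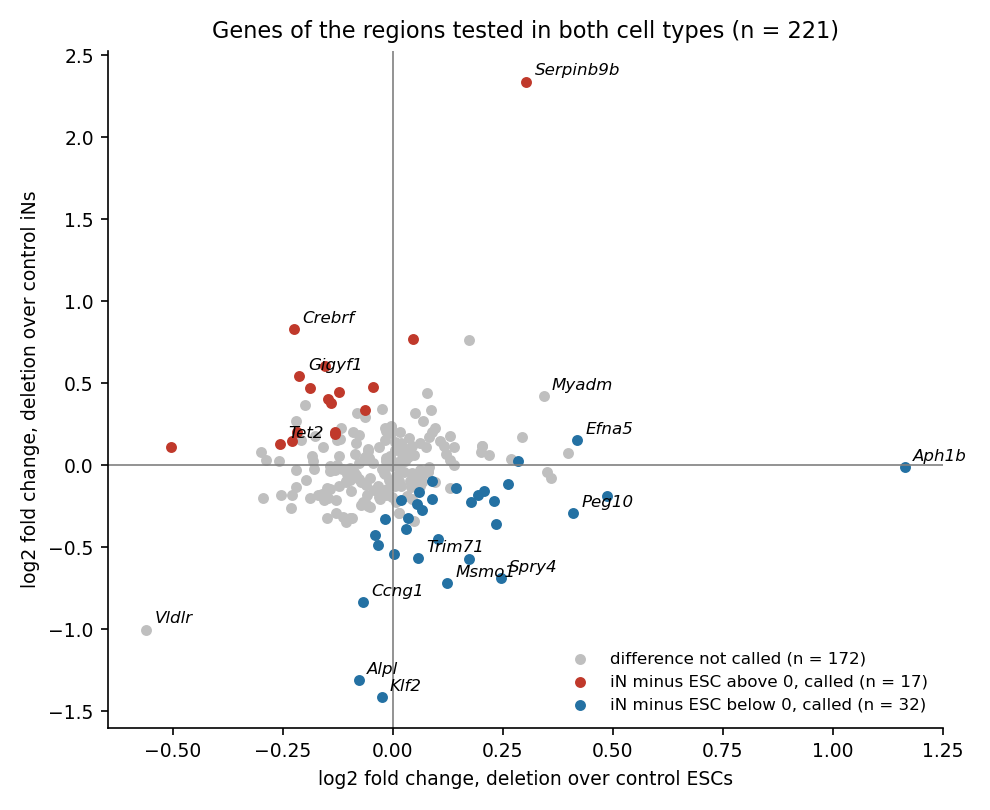
Log2 fold change of deletion over control in iNs (vertical) against ESCs (horizontal) for the 221 genes tested in both, coloured by whether the difference between the cell types was called. Most genes lie within about 0.5 of 0 on both axes, with 17 called differences above and 32 below 0, and both axes have their own 6 libraries.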

How the data were processed

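Build mm10 and the tools STAR 2.4.1d, RSEM 1.2.30, cutadapt 1.4.2, SAMtools and DESeq2 are listed without roles, per the submitters' processing notes. The authors deposited RSEM expected counts and TPM for each RNA library, and expected and posterior mean counts for small RNA, per the file headers. The deposited region lists give a log2 fold and a −log10 p per region from pooled replicates, and the peak caller is not given in the sources used here. The authors' DESeq2 tables hold log2 fold changes, adjusted p-values and mean normalised counts (a signal averaged over libraries), per the file headers. Those means were matched to mature accessions within a relative tolerance of 1e-08 to name 828 of 1907, which held 99.99% of mature counts. The authors' list marks each site with a letter, C or N, whose meaning is not given, and it was not used. The 2 deposited region lists hold the same 22400 intervals.

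Expected counts were rounded and tested by quasi-likelihood F tests (edgeR 4.0.16, R 4.3.3) after TMM scaling and a filterByExpr minimum of 10 counts, with Benjamini-Hochberg adjustment over all genes tested and a threshold of 0.05, checked on simulated data. Each cell type was fitted on its 6 libraries and the difference between cell types on all 12. SE is the size of the log2 fold change divided by the square root of F, and CPM uses the TMM-scaled library size. Strand and annotation release are not given in the sources used here, so overlapping genes and near-identical copies are uncertain. In ESCs, deviations of same-letter control and deletion libraries correlated (r = 0.421, 0.129 and 0.189 across genes for A, B and C). Between different letters, r was -0.328 to -0.188 with A. It was 0.151 for control B with deletion C and 0.064 for control C with deletion B. Only letter A stood clearly apart, so the pairing of B and C is uncertain. The letters were taken as pairs for the blocked ESC values. In iNs the same-letter values were -0.063, 0.003 and 0.027. The printed fits have no block, as the design set, and blocked ESC values are given where they change a call or count.

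Genes were named by rule: the top region per microRNA, the 10 genes with most regions, the 10 largest rises and falls in iNs (mean log2 CPM of at least 2, no overlap), 5 each way in ESCs and for the difference, and up to 4 called genes per list; a few genes so named are not reported here. Lists not printed above (ion channels, synaptic vesicle and actin regulators) held no gene with a region matched to the 13 microRNAs. The regions, lists and tests were chosen with earlier results of these data known. No genome was used, so no site sequence is printed.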

Additional observations from a re-analysis of the deposited data

Results flagged for a closer look

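For the named genes below, the effect of the deletion differed between iNs and ESCs by a test of the difference itself (edgeR, all 12 libraries, adjusted p under 0.05). Values are log2, iNs minus ESCs. Differences above 0 were found for Crebrf (1.04), Ccng2 (0.75), Gigyf1 (0.74), Snhg11 (0.70), Pnrc1 (0.64), Crebzf (0.56), Tnrc6b (0.50), Tet2 (0.37), Slc17a6 (1.29) and Serpinb9b (2.02). Tet2 fell in ESCs and was not called in iNs, and the other 9 were not called in ESCs or, for Slc17a6, not tested there. With the replicate letter as a block, falls in ESCs were called for Gigyf1 (adjusted p = 0.0186), Crebrf (0.0304) and Pnrc1 (0.0457), and a rise for Efnb2 (0.0247).

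Differences below 0 were found for Klf2 (-1.42), Alpl (-1.255), Aph1b (-1.19), Spry4 (-0.95), Msmo1 (-0.86), Ccng1 (-0.78), Peg10 (-0.72), Trim71 (-0.64), Mapk6 (-0.57), Mycn (-0.56), Rest (-0.47), Srsf7 (-0.40), Efnb2 (-0.40), Efna5 (-0.28) and Tmsb4x (-0.27). Efna5 rose in both cell types, by less in iNs. Trim71 and Mycn fell in iNs, at 93.4 to 103.9 and 40.9 to 43.5 CPM in controls, and were not called in ESCs, at 771.7 to 786.4 and 250.8 to 277.8 CPM. Groups of 3 libraries were not searched for outlying values.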

How the results depend on the processing

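Most counts of called genes were within 1.5 times the reported ones. Exceptions in iNs were regions in the upper part by fold (21 lower, with 26 higher, so that rises then outnumbered falls), regions whose every name is among the 13 (31 higher, 30 lower) and, chosen after seeing the data, regions with a −log10 p of at least 2 (19 higher, 15 lower). Leaving out 1 iN library gave 21 to 33 higher and 35 to 50 lower. In ESCs, 1 fit of all 12 libraries gave 2 lower, no filter 2 lower, the upper part by fold 3 higher, and regions with a −log10 p of at least 2 gave 1 higher. Leaving out 1 ESC library gave 3 to 5 higher and 0 to 1 lower. With the replicate block, the ESC counts were 16 higher and 20 lower, the iN counts 30 and 40, and those for the difference 21 and 33, against 18 and 32. Leaving out 1 library of 12 gave 15 to 22 and 20 to 34 for the difference, the 20 without deletion iN library B. For the refits in this paragraph other than the blocked ESC fit, shares of all genes called are not given here. Their counts show how the calls vary and are not set against all genes. At a log2 fold of at least 3 and a −log10 p of at least 5, 33 regions were left.

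Direction reversed for Clock without control iN library A (-0.144 to 0.007 over the fits leaving out 1 library) and for Zbtb20 without deletion iN library A or C (-0.182 to 0.075), genes that were not called. Adding miR-487-3p entries, or those of miR-376b-3p and miR-412-5p, was chosen after seeing the data. The first gave 37 rises (16.3%) and 51 falls (22.5%) in iNs among 227 tested genes. The second gave 37 rises (14.7%) and 62 falls (24.7%) among 251. Of all genes tested in iNs, 12.4% rose and 13.3% fell. The cause of these changes was not tested, and fewer genes or libraries enter several of them. In simulated data with the depth of these libraries, edgeR recovered most changes of 1 on the log2 scale and fewer of 0.5, so small changes can be missed. The simulation gave every gene the same dispersion and changed only genes of higher counts. Genes of low counts or larger spread were therefore not covered.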
